A study of Arabidopsis thaliana with 16 samples.

Results

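Anti-WRKY chromatin immunoprecipitation in Arabidopsis seedlings gave 241 binding regions whose peaks lay in introns or exons, out of 3886 merged regions of every annotation. A peak entered the set when the deposited annotation placed it in an intron or an exon, and peaks of different libraries were joined into 1 region where they shared at least 1 bp. These rules took 714 of 14333 peaks, of which 508 were intronic and 206 exonic. Of the 241 regions, 156 held intron peaks alone, 68 held exon peaks alone and 17 were mixed, with an intron peak in one library and an exon peak in another. They were narrow, with a median width of 449 bp and a range of 138 to 1354 bp. They fell in 235 annotated genes, of which 230 are protein coding, 3 are pseudogenes, 1 is a transcribed pseudogene and 1 is a noncoding RNA gene.

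Chromatin came from whole Col-0 seedlings, 12 days old, so signal from different tissues was pooled. The 4 groups were untreated WT (0 h), WT after 2 h in medium with 1 µM flg22, and the wrky18 wrky40 wrky33 triple mutant under the same pair of conditions, here called the mutant, with 2 biological replicates each. Flg22 is a peptide of bacterial flagellin that plants sense as a sign of infection. Treatment replaced the growth medium and no mock sample at 2 h was analysed here, so time, medium change and flg22 cannot be told apart. The immune serum is named as one against all WRKY proteins, and the mutant still has the other members of the family. The labels do not give the mutant alleles.

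WRKY proteins are plant transcription factors that bind a short DNA element called the W box. They regulate defence genes, and many WRKY genes are themselves controlled by other WRKY proteins. Most study of such factors looks at promoters, but a factor can also be held at sites within the transcribed part of a gene, in introns (removed from the transcript) or in exons (kept in it). WRKY18, WRKY40 and WRKY33 act in responses to microbes, and WRKY33 is best known for its part in making the antimicrobial compound camalexin.

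The lists held 1372 to 2213 peaks, with more at 2 h than at 0 h in every pair of the same genotype and replicate. The list for WT 0 h replicate 1 was incomplete in its own numbering: it ran to number 1508 and lacked 136 numbers, so a region without a call there may have been among the absent rows. Read depth behind a call is unknown, since the deposited tables hold calls and scores but no read counts. The authors' ChIP score was read only as a percentile within its own list, where 100 is the strongest peak. No comparison of values per library passed an adjusted p of 0.05 in the 19 tests run.

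Intron peaks were more numerous at 2 h of flg22 in both genotypes. WT libraries held 44 and 49 intron peaks at 0 h and 84 and 80 at 2 h (replicates 1 and 2). Mutant libraries held 49 and 49 at 0 h and 84 and 69 at 2 h. All libraries at 2 h lay above all libraries at 0 h, with means of 79.3 ± 7.09 and 47.8 ± 2.50 (SD, n = 4 each; exact permutation test, two-sided, p = 0.0286, the smallest that 4 against 4 libraries allow; Benjamini-Hochberg adjusted p = 0.247). As a share of the whole list the groups overlapped, with introns at 3.82 ± 0.493% of peaks at 2 h and 3.20 ± 0.244% at 0 h (n = 4 each; exact permutation p = 0.114, adjusted p = 0.396). Within pairs of the same genotype and replicate the intron share was higher at 2 h in all 4, by 0.269 to 1.01 percentage points (exact sign permutation p of 1 in 8, the smallest that 4 pairs allow). When every list was reduced to its 1372 strongest peaks the difference in intron peaks was 6.25 (exact permutation p = 0.114).

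Exon peaks showed no such pattern with time. WT libraries held 16 and 27 exon peaks at 0 h and 6 and 26 at 2 h. Mutant libraries held 20 and 44 at 0 h and 11 and 56 at 2 h. The means were 24.8 ± 22.5 at 2 h and 26.8 ± 12.4 at 0 h (n = 4 each; exact permutation p = 0.886), and within a genotype and replicate the difference ran from -10 to 12. The exon share of a list was 1.16 ± 1.00% at 2 h and 1.74 ± 0.616% at 0 h (n = 4 each; exact permutation p = 0.343), and was lower at 2 h in all 4 such pairs, with differences of -0.865 to -0.0276 percentage points (exact sign permutation p of 1 in 8). In each of the 4 groups replicate 2 held more exon peaks than replicate 1. By their exon peaks, 47 of the 68 exon regions were found in replicate 2 alone, 8 in replicate 1 alone and 13 under both numbers. With a peak of any label as a call, 39 were found in replicate 2 alone (57.4%, against 29.1% of all merged regions), 5 in replicate 1 alone (7.35%, against 25.3%) and 24 under both. Intron regions were split evenly under that rule, with 50 in replicate 1 alone, 49 in replicate 2 alone and 57 in both. What differed between the replicates is not stated in the labels, and its part in the exon calls was not tested.

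**Figure D1:**
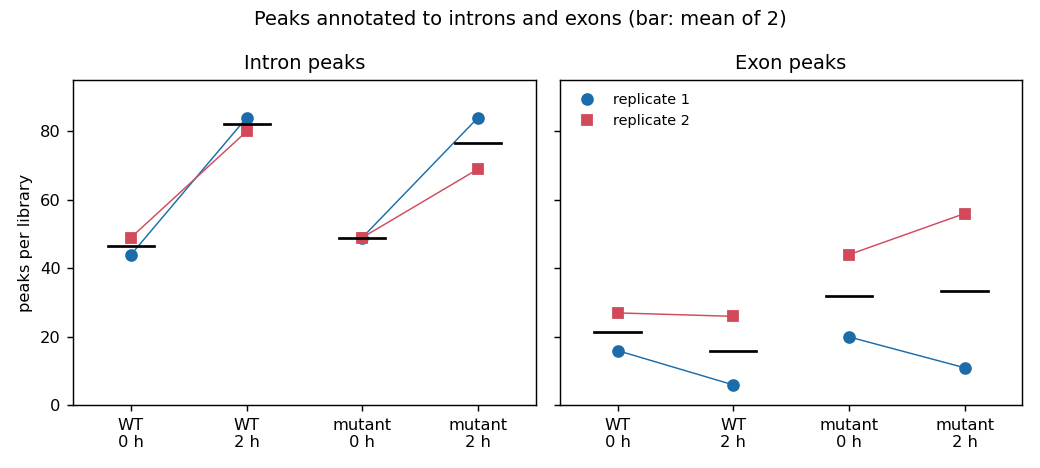
Number of intron peaks (left) and exon peaks (right) per library by group; circles are replicate 1, squares are replicate 2, lines join the times within a genotype and replicate, and bars are means of 2. Intron peaks lie at 44 to 49 at 0 h and 69 to 84 at 2 h, while exon peaks in replicate 2 lie above those of replicate 1 in every group.

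Taken as 1 class, intron and exon peaks made up 4.37% to 5.65% of a list. Replicate 1 lists held 4.37% to 4.77% and replicate 2 lists 5.11% to 5.65%, without overlap, a split that was not tested. The share was 4.98 ± 0.515% at 2 h and 4.93 ± 0.458% at 0 h (n = 4 each; exact permutation p = 0.914). In number they were 104 ± 15.5 at 2 h and 74.5 ± 14.0 at 0 h (n = 4 each; exact permutation p = 0.0571, adjusted p = 0.271). Within the class, introns held 93.3% of the peaks in WT 2 h replicate 1 and 52.7% in mutant 0 h replicate 2, the highest and lowest of the 8 libraries.

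The genotypes overlapped on each of these measures. Mutant libraries held 95.5 ± 22.9 intron and exon peaks and WT libraries 83.0 ± 19.6 (n = 4 each; exact permutation p = 0.486, adjusted p = 0.615). Intron peaks were 62.8 ± 17.0 in the mutant and 64.3 ± 20.7 in WT (n = 4 each; exact permutation p = 1). Exon peaks were 32.8 ± 20.8 in the mutant and 18.8 ± 9.84 in WT (n = 4 each; exact permutation p = 0.314). In each same-time, same-replicate pair the mutant library held more exon peaks, by 4 and 5 in replicate 1 and by 17 and 30 in replicate 2.

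Intron and exon peaks were less often among the strongest of a list than other peaks. A percentile above 90 was reached by 37 of 508 intron peaks (7.28%) and 9 of 206 exon peaks (4.37%), against 10.2% of all other peaks. Peaks of 1 region in several lists count separately here, and the intron region of AAT1 was above 90 in all 8 lists. The median percentile of intron and exon peaks was 43.5 ± 3.52 over the 8 libraries, against 50.5 ± 0.240 for the other peaks. It was lower in 7 libraries and equal in 1, with a mean difference of -6.99 ± 3.65 (SD, n = 8; exact sign permutation, two-sided, p = 0.0156, adjusted p = 0.247). Intron and exon peaks were also narrower than the rest in 7 of 8 libraries, with a mean difference in width of -24.7 ± 30 bp (SD, n = 8; exact sign permutation p = 0.0391, adjusted p = 0.247). Introns and exons did not differ in percentile beyond the spread between libraries, with medians of 43.7 ± 4.51 and 41.7 ± 9.05 (n = 8; exact sign permutation p = 0.570).

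The share of peaks found again in the other replicate of a group was lower for introns and exons than for promoters in all 8 libraries. In WT 0 h the share also called in the replicate was 48.3% and 40.8% for intron and exon peaks, and 61.9% and 58.0% for promoter peaks. In WT 2 h it was 51.1% and 46.2% against 60.1% and 58.4%. In the mutant it was 58.0% and 44.1% against 66.2% and 55.7% at 0 h, and 48.4% and 39.2% against 57.4% and 52.4% at 2 h. Over the 8 libraries the shares were 47.0 ± 5.97% and 58.8 ± 4.13% (SD, n = 8). All 4 group means were lower, by 11.8 ± 2.47 percentage points on average (SD, n = 4 groups; exact sign permutation p of 1 in 8, the smallest that 4 groups allow).

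**Figure D2:**
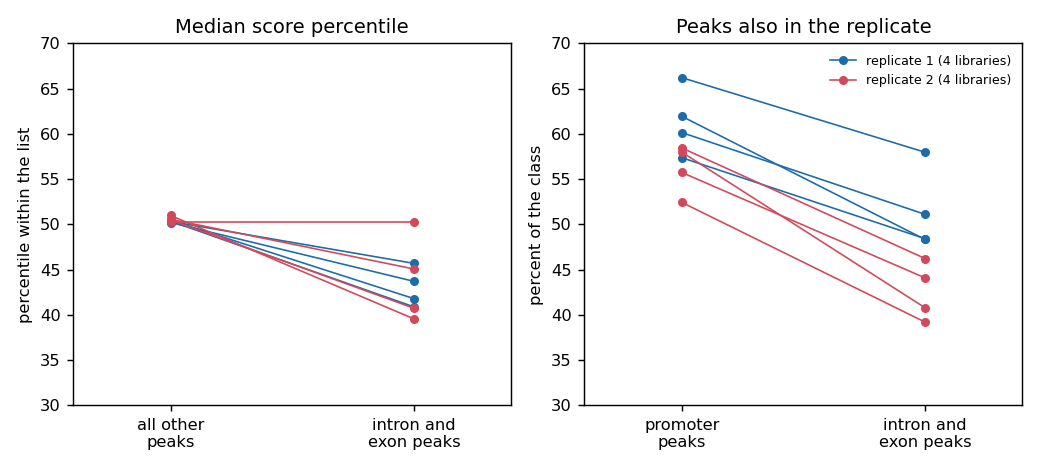
Left, the median score percentile of all other peaks and of intron and exon peaks in each library; right, the percent of promoter peaks and of intron and exon peaks that were also called in the other replicate; each line is 1 library. The lines go down in 7 of 8 libraries on the left and in all 8 on the right.

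Most of these peaks lay downstream of the nearest transcription start site (TSS), with 35 of 508 intron peaks and 20 of 206 exon peaks upstream of it. The distance from an intron peak to the nearest TSS had a median of 916 bp and quartiles of 589.5 and 1392 bp, and that from an exon peak had a median of 1041.5 bp and quartiles of 347.5 and 1629.5 bp. The median distance per library was 953 ± 90.4 bp for introns and 1021 ± 119 bp for exons, a difference within the spread between libraries (-67.8 ± 157 bp, n = 8; exact sign permutation p = 0.273). No intron peak lay within 113 bp downstream of a TSS, and the nearest exon peak lay at 100 bp. Of the 454 peaks of any label at 0 to 100 bp downstream of a TSS, 453 carried the promoter label, so these lower edges are set by the annotation.

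Among the 156 intron regions, 29 were in genes with a single intron. Another 2 carried more than 1 intron number, and 125 lay in 1 intron of a gene with several. Of these 125, 66 (52.8%) were in the first intron and 15 (12.0%) in the last. A position drawn evenly over the introns of each gene would fall in the first 25.01% of the time, counting introns and not their lengths, which were not used here. By library, 42.1% to 56.4% of intron peaks in such genes were in the first intron. First introns tended to lie nearer the TSS, with a median distance of 783 bp against 1235.5 bp for later introns, while the median percentiles were 45.1 and 43.7. The exon labels ran the other way: of 42 exon regions in genes with several exons, 5 (11.9%) were in the first exon and 21 (50%) in the last, against an even share of 27.3%. The remaining 26 exon regions were in genes with a single exon. Peaks at 0 to 100 bp downstream of a TSS carried the promoter label in 453 of 454 cases, so few of them could count as first exon. How far this lowered the first-exon share was not tested, and exon lengths were not used.

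For 219 regions the nearest promoter was that of the gene holding them. For the other 22, of which 12 were intronic and 10 exonic, it belonged to another gene throughout. In 16 of these 22 the region lay upstream of that other gene's TSS, and in 10 within 2000 bp upstream of it, so the same site can be read as genic for one gene and as upstream sequence for its neighbour.

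**Figure D3:**
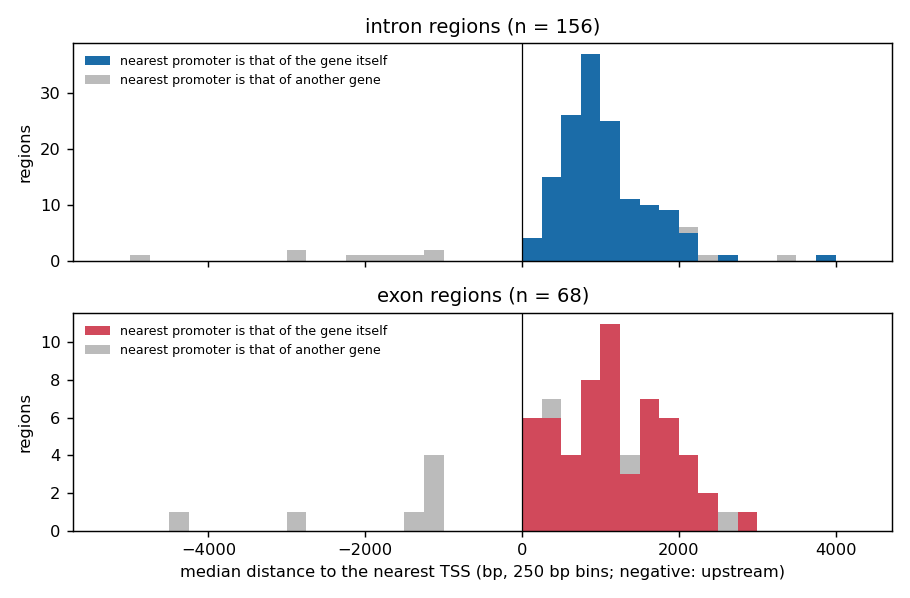
Number of intron regions (top) and exon regions (bottom) by median distance to the nearest TSS in bp; grey bars are regions whose nearest promoter belongs to another gene than the one holding them. Coloured bars lie only downstream of the TSS, most of them within 2000 bp.

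Labels could be compared between libraries for the 171 regions that more than 1 library called, and 150 of these carried no label but intron or exon, 14 of them mixed. In the other 21 a peak of at least 1 library was labelled promoter (11 regions), transcript end (5), 3′ UTR (4) or 5′ UTR (1). Counting only intron and exon peaks, 16 regions were called in all 8 libraries. Counting a peak of any label, 24 were. The 8 regions that differ, listed after their values were seen, lay at ATL9, AT4G01460, AT4G03460, AT4G08850, UTR2, AT5G25930, AT5G48430 and AT5G57010. The strongest was at AT4G08850, described in the deposited table as a leucine-rich repeat protein, on chromosome 4 from 5640214 to 5640849 (TAIR10). Its percentiles were 91.6 and 91.9 (0 h) and 91.9 and 94.1 (2 h) for WT, and 83.4 and 85.2 (0 h) and 93.0 and 85.8 (2 h) for mutant libraries. Only 1 of those 8 peaks was labelled exon, 105 bp from the TSS, and the others were labelled promoter. All libraries therefore held a strong peak at this promoter edge. All 8 regions count as called in every library in the group comparisons that follow.

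The strongest intron region lay in AAT1, which encodes an amino acid transporter of the plasma membrane. It covered chromosome 4 from 11271339 to 11272161 (TAIR10), in intron 1 of 2, 1704 bp from the TSS. Its percentiles were 92.9 and 99.1 (0 h) and 96.0 and 98.0 (2 h) for WT, and 97.2 and 98.9 (0 h) and 98.0 and 99.1 (2 h) for mutant libraries. It was thus above 90 in every list, with a mean of 97.4 ± 2.12 (SD, n = 8) and no separation by genotype or time.

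PTR3, a peptide transporter gene, held the steadiest of the other leading introns. The region covered chromosome 5 from 18676827 to 18677661, in intron 2 of 4, 1920 bp from the TSS. It reached percentiles of 86.7 and 78.1 (0 h) and 92.1 and 89.5 (2 h) for WT, and 86.5 and 76.7 (0 h) and 87.5 and 86.5 (2 h) for mutant libraries (mean 85.4 ± 5.33, n = 8). The lowest values of both genotypes were those of replicate 2 at 0 h, and the times overlapped.

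AT3G27150, described as an F-box/kelch-repeat protein, held a region on chromosome 3 from 10011091 to 10011862, in its only intron and 167 bp from the TSS. Its percentiles were 86.0 and 32.5 (0 h) and 98.9 and 98.6 (2 h) for WT, and 90.9 and 82.3 (0 h) and 99.2 and 97.7 (2 h) for mutant libraries. All 4 libraries at 2 h lay above all 4 at 0 h. For a region picked for its high score this is a description with no test. Of the 24 regions with a call in all 8 libraries, 2 had every 2 h percentile above every 0 h percentile (8.33%, against 7.06% of such regions in the whole series), AT3G27150 and AT1G51790, and 1 the reverse (4.17%, against 2.42%), AKN2.

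The intron of CYP715A1, a cytochrome P450 gene, followed the replicate number. The region covered chromosome 5 from 21274529 to 21275064, in intron 3 of 3, and lay upstream of the TSS of its neighbour AT5G52410, at -1163 bp. In replicate 1 its percentiles were 70.3 (WT 0 h), 61.6 (WT 2 h), 79.0 (mutant 0 h) and 81.0 (mutant 2 h), and in replicate 2 they were 92.5, 95.3, 93.9 and 96.5 in the same order. Every replicate 2 library was above every replicate 1 library, as in 5 of the 24 regions called throughout (20.8%, against 18.8%). None of the 24 had the replicates in the opposite order (against 11.3%), and none separated by genotype in either direction (against 0.202% each way).

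By their deposited descriptions, 4 of the 12 leading introns lay in kinase genes. AT1G67510, also among the 12, had no description and could not be counted. The word kinase was found for 7.05% of intron and exon regions with a description and for 9.66% of the other regions of the series. Receptor-like kinases span the plasma membrane and pass signals from outside the cell to the inside. AT1G07650, described as a leucine-rich repeat receptor-like kinase, had its region on chromosome 1 from 2364874 to 2365661 in intron 2 of 23, with percentiles of 95.8 and 78.5 (0 h) and 85.8 and 44.3 (2 h) for WT, and 94.1 and 84.3 (0 h) and 81.9 and 68.3 (2 h) for mutant libraries. Within each genotype and replicate the 2 h value was the lower one. AT1G51790, described as a leucine-rich repeat kinase, held a region in intron 1 of 12, with percentiles of 49.5 and 50.3 (0 h) and 68.2 and 58.9 (2 h) for WT, and 57.9 and 43.2 (0 h) and 66.2 and 67.7 (2 h) for mutant libraries. All 4 libraries at 2 h lay above all 4 at 0 h. The putative kinase AT1G76360 had a mean of 61.3 (intron 2 of 5), and RK1, a receptor kinase gene, had a mean of 61.1 (intron 1 of 6) with no call in WT 0 h replicate 1, the incomplete list. RK1 also followed the replicate number, with 53.2, 54.8 and 40.9 in replicate 1 where it was called and 78.1, 85.1, 84.6 and 91.9 in replicate 2.

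The remaining leading introns were less even. TCX2, which encodes a DNA-binding protein with a CXC domain, ranged from 9.72 in WT 0 h replicate 2 to 97.0 in WT 2 h replicate 1 (intron 1 of 8). CAMS1, the gene for camelliol C synthase, a triterpene-forming enzyme, was called in 7 libraries, at 40.1 to 89.2, and not in WT 2 h replicate 1. AT1G67510 was called in all 8 libraries at 31.3 to 85.3, in its only intron, at -1452 bp from the TSS of REV3, the gene of a DNA polymerase subunit. AT2G31990, described as an exostosin-like protein, was called in 7 libraries at 27.8 to 80.3 and not in mutant 0 h replicate 2. Below these 12, introns called in all 8 libraries were at ACA11, a calcium pump gene, with a mean of 48.8, and at ANL2, a homeobox gene, with a mean of 38.9. ACA11 was at 43.1, 7.00, 5.32 and 24.9 in replicate 1 and at 70.5, 67.7, 88.4 and 83.4 in replicate 2, so it too separated by replicate.

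Only 11 of 156 intron regions had a mean percentile above 50 over the 8 lists, where a list without a call counts as 0. The same held for 3 of 17 mixed regions and 1 of 68 exon regions.

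Of the mixed regions, 4 were called in every library. The strongest was at AKN2, which encodes an adenylyl-sulfate kinase that makes the sulfate donor used in glucosinolate synthesis. It covered chromosome 4 from 18520678 to 18521501, with percentiles of 97.2 and 96.8 (0 h) and 46.2 and 85.5 (2 h) for WT, and 94.1 and 94.4 (0 h) and 82.8 and 64.0 (2 h) for mutant libraries. All 4 libraries at 0 h were above all 4 at 2 h. AT1G05370, described as a phosphatidylinositol transfer protein, had a mean of 69.8, with 43.6 to 73.6 in replicate 1 and 83.8 to 93.3 in replicate 2. AT3G23530, described as a cyclopropane-fatty-acyl-phospholipid synthase, had a mean of 55.4 and a range of 13.2 to 90.8. AT5G18460 had a mean of 48.2 and was lowest in WT at 2 h, at 14.0 and 6.61.

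**Figure D4:**
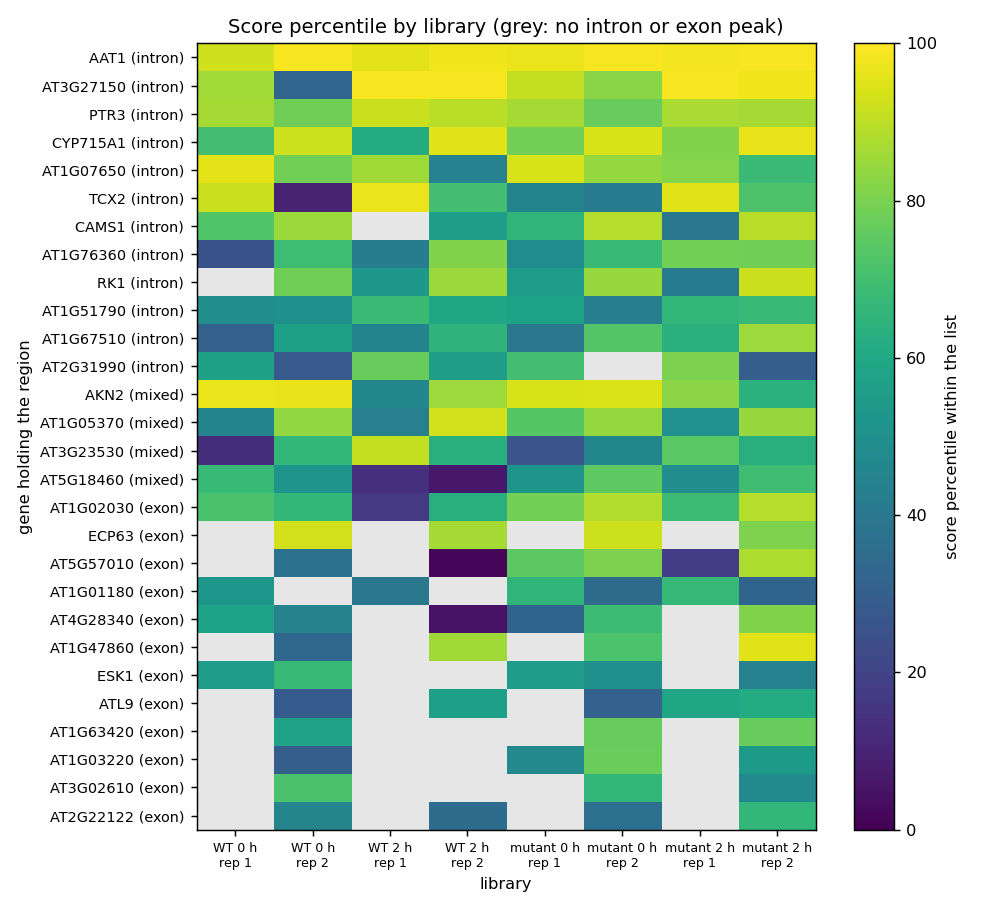
Score percentile in each of the 8 libraries (columns) for the 12 leading intron regions, the 4 mixed regions called in all libraries and the 12 leading exon regions (rows); grey cells have no intron or exon peak. The intron rows are filled in at least 7 libraries, while many exon rows are filled in replicate 2 only.

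The leading exon regions had lower means over the 8 lists, and most held exon peaks in fewer libraries. A list without a call counts as 0 in these means. Where called, the median percentile was 36.4 over all 68 exon regions and 33.8 over all 156 intron regions. Just 1 exon region was called as an exon in all 8 libraries. It lay in the single exon of AT1G02030, described as a C2H2 zinc finger protein, on chromosome 1 from 356598 to 357339 and 278.5 bp from the TSS. Its percentiles were 71.2 and 66.1 (0 h) and 16.6 and 62.6 (2 h) for WT, and 79.0 and 88.4 (0 h) and 68.5 and 88.8 (2 h) for mutant libraries (mean 67.6). The mutant libraries lay at 68.5 or higher and the WT libraries at 71.2 or lower, so the genotypes overlapped, although in each of the 4 same-time, same-replicate pairs the mutant was higher.

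The next exon region was called in replicate 2 of all 4 groups and in no replicate 1 library. It lay in ECP63, a late embryogenesis abundant protein gene, on chromosome 2 from 15356756 to 15357316 (exon 3 of 3), at 93.3 (0 h) and 86.5 (2 h) for WT and 92.3 and 80.5 for the mutant. Among the 12 leading exons, AT1G47860, AT1G63420, AT3G02610 and AT2G22122 were also called in replicate 2 libraries alone. AT1G47860, a pseudogene, reached 33.8 (0 h) and 85.8 (2 h) for WT and 71.6 and 95.5 for the mutant, with no call in any replicate 1 list. AT1G63420 was called in 3 libraries at 57.6 to 76.9, AT3G02610, described as an acyl carrier protein desaturase, in 3 at 47.4 to 71.3, and AT2G22122 in 4 at 35.5 to 66.4.

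The other leading exons were shared between replicate numbers. AT5G57010, described as a calmodulin-binding protein, had exon calls in 6 libraries and a promoter call in the other 2, with percentiles of 91.4 and 37.9 (0 h) and 21.1 and 1.23 (2 h) for WT, and 74.8 and 80.1 (0 h) and 18.03 and 87.9 (2 h) for mutant libraries. ATL9, a ubiquitin ligase gene, had 5 exon and 3 promoter calls, at 29.2 to 70.7. AT1G01180, described as a methyltransferase, was called in 6 libraries at 32.1 to 67.1, and AT4G28340 in 6 at 5.04 to 80.9. AT1G03220, described as an aspartyl protease, was called in 4 at 30.3 to 77.2 and was not called in WT at 2 h.

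Smaller shares of these regions than of all regions were called in both libraries of a group. With a peak of any label as a call, both libraries of WT 0 h held 37 of the 241 regions (15.4%, against 21.6% of all merged regions). The figures were 54 for WT 2 h (22.4%, against 30.1%), 46 for mutant 0 h (19.1%, against 24.3%) and 54 for mutant 2 h (22.4%, against 29.5%). A single library alone called 70 regions (29.0%, against 26.3% of all regions), and all 8 libraries called 24 (9.96%, against 12.8%). With 1 library enough, 71 of the 156 intron regions were called at 2 h only (45.5%, against 35.9% of all merged regions), 7 at 0 h only (4.49%, against 5.92%) and 78 at both times. For exon regions the counts were 17 (25%), 7 (10.3%) and 44. The lists at 2 h were the longer ones, and the split over all regions leaned the same way.

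Set between groups, a region was taken as different when both libraries of one group called it and neither library of the other did. In WT, 14 of the 194 regions with a call were found at 2 h and not at 0 h (7.22%), against 7.89% of all merged regions, and 4 were found at 0 h and not at 2 h (2.06%), against 2.11%. With 2 libraries against 2 the smallest exact p is 1 in 3, so these counts are descriptions, and both shares were near those of the whole series. Of the 14, 13 were intron regions and 1 was an exon region, where most calls carried the promoter label. When all lists were reduced to 1372 peaks, 4 were left at 2 h only and 9 stood at 0 h only, so the balance turned with the length of the lists. Without WT 2 h replicate 1 the count at 2 h only was 45, and without WT 2 h replicate 2 it was 44. Without replicate 1 or 2 of WT 0 h it was 20 or 19.

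The strongest region found in WT at 2 h and not at 0 h lay in the only intron of AT5G53110, a RING/U-box protein gene, on chromosome 5 from 21529762 to 21530199, 958 bp from the TSS. It reached percentiles of 88.1 and 76.9 in WT at 2 h and 57.2 in mutant 2 h replicate 1, and had no call elsewhere. AT1G14780 was at 81.9 and 60.4 and TOPP1, the gene of a catalytic subunit of protein phosphatase 1, at 84.5 and 50.5, again with a mutant call in 2 h replicate 1 alone, at 71.9 and 82.1. AT1G66880 was at 63.9 and 54.6 and, in mutant 2 h replicate 2, at 0.678. The remaining 8 beyond the leading 6 were all introns, with mean percentiles of 19.6 to 48.4.

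Both other leading regions of this group were also found in both mutant libraries at 2 h, and they were the only members found in every library at 2 h and in none before treatment (0.830%, against 1.13% of all regions). One lay in the last exon, 12 of 12, of EICBP.B, also named CAMTA1, the gene of a calmodulin-binding transcription activator, on chromosome 5 from 2927071 to 2927451. Its percentiles were 78.4 and 26.5 in WT and 42.7 and 31.1 in the mutant, and it lay at -1055 bp from the TSS of the adjacent gene TOC64-V. Of its 4 peaks, 3 were labelled promoter and 1 exon. The other lay in intron 1 of 4 of AT2G45750 on chromosome 2 from 18843436 to 18843956, at 26.1 and 72.9 in WT and 53.1 and 5.35 in the mutant. Of the 14 regions, 1 was called in any mutant library at 0 h, while at 2 h both mutant libraries called 2, one of them called 8 and neither called 4.

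In the opposite direction, ESK1, whose product adds acetyl groups to xylan of the cell wall, held the strongest region. It lay in exon 3 of 5, on chromosome 3 from 20781307 to 20781852, at 54.7 and 67.4 (WT 0 h), 54.8 and 50.3 (mutant 0 h) and 44.2 (mutant 2 h replicate 2). All 4 libraries at 0 h held it, and 1 of 4 at 2 h did. The others were AT3G60110 (47.3 and 39.0), AT1G78850 (6.52 and 39.0) and PG2, a polygalacturonase gene (14.1 and 6.41). AT1G78850 was the only member found in every untreated library and in none at 2 h (0.415%, against 0.129% of all regions), with 17.1 and 3.92 in the mutant. Of its 4 peaks, 2 were labelled exon and 2 transcript end.

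In the mutant, 5 of 197 regions were found at 2 h and not at 0 h (2.54%), against 3.39% of all regions, and 1 in the opposite direction (0.508%), against 0.550%. The 5 were EICBP.B, AT2G45750, AT2G39420, ACI1 and IAA28. AT2G39420, described as an alpha/beta hydrolase, was at 24.9 and 48.4 and had no call in any other group. IAA28, a repressor of auxin-responsive genes, was at 26.2 and 12.6 in the mutant, and at 39.98 and 17.6 in replicate 1 of WT (0 h, then 2 h). ACI1 was at 38.5 and 11.5 in the mutant, and was called in WT 0 h replicate 1 at 53.3 and in both WT 2 h libraries at 57.9 and 3.38. The single region at 0 h only was that of AT1G78850.

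Between genotypes at 2 h, 6 of 226 regions were found in the mutant and not in WT (2.65%), against 1.61% of all regions, and 5 in WT and not in the mutant (2.21%), against 1.70%. The 6 were CKX4, a cytokinin oxidase gene (8.22 and 71.1), AT3G16565 (17.1 and 58.7), AT2G39420, AT5G65500 (9.42 and 55.3), PRR5 of the circadian clock (3.10 and 45.1) and AT3G60110. In each of the 6, replicate 2 gave the higher percentile. The 5 were all introns, at AT5G44050 (21.1 and 68.5), LBD11 (58.9 and 17.4), AT3G49210 (18.7 and 35.5), AT5G47070 (10.6 and 41.9) and MYB42 (8.43 and 35.5). LBD11 and MYB42 encode transcription factors. At 0 h none of 152 regions was found in the mutant and not in WT, against 1.57% of all regions. ZFP4, a zinc finger protein gene, was the only one in WT and not in the mutant (0.658%, against 0.763%), at 32.2 and 9.72. Leaving out 1 library of a pair moved these counts to between 4 and 52, the highest without mutant 2 h replicate 1.

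**Figure D5:**
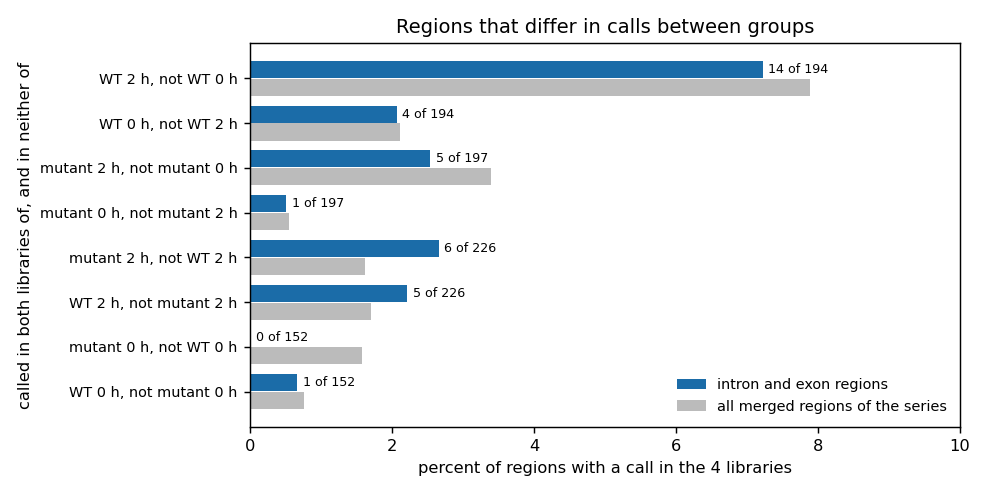
Percent of regions that one group called in each library and another never, for the 8 directions of the 4 comparisons; blue bars are intron and exon regions, with their counts, and grey bars are all merged regions of the series. The highest blue bar, WT 2 h and not WT 0 h, stands at 7.22% beside a grey bar of 7.89%.

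Lists of defence and hormone genes held 9 genes with a region. Against a background of 230 of 27444 protein-coding genes (0.838%), 3 of 72 WRKY genes held one (4.17%), all in introns, as did 2 of 24 genes for camalexin and indole glucosinolates (8.33%) and 2 of 25 of the salicylic acid and EDS1 pathway (8.00%). The shares were 1 of 25 (4.00%) for ethylene and 1 of 25 for jasmonate. These shares rest on 1 to 3 genes each, and the lists were chosen with results of these data known, so no test was made. The background counts genes with or without a peak elsewhere, and the shares for regions of every annotation are not given here. An excess particular to introns and exons therefore cannot be read from these values. WRKY17, which encodes a member of the calmodulin-binding branch of the family, was called in intron 1 of 2 at 53.3 in WT 0 h replicate 1, at 71.2 and 13.0 in the mutant at 0 h and at 5.35 in mutant 2 h replicate 2. WRKY7, of the same branch, was called in intron 2 of 2 in 3 replicate 2 libraries, at 22.3 to 36.5. WRKY33, one of the genes mutated in the triple mutant, had an intron call in replicate 2 of the mutant at 58.5 (0 h) and 42.3 (2 h), and a promoter call at 82.9 in WT 0 h replicate 1. None of the 3 was called in both libraries of WT.

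In the salicylic acid and EDS1 pathway the 2 genes were EDS5 and PBS3. EDS5, the transporter that moves the precursor of salicylic acid out of the chloroplast, was called in intron 1 of 11 at 58.9 (WT 2 h), 38.9 (mutant 0 h) and 70.5 (mutant 2 h), each time in replicate 1. PBS3, the enzyme that joins that precursor to glutamate, was called at 4.74 and 72.3 in WT and at 56.0 in mutant 2 h, each time in replicate 2. Neither was called in both libraries of any group.

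Among genes for camalexin and indole glucosinolates, CYP79B3, which makes their shared precursor from tryptophan, was called once at 17.1, and CYP81F3 once at 19.2. An intron of BGLU17, a glucosidase gene, had as its nearest promoter that of the neighbouring PEN2, which cleaves indole glucosinolates, and was called once at 40.7. Among ethylene genes, ACS2, an ethylene synthesis enzyme gene, was called in its last exon in the 4 replicate 2 libraries, at 3.38 to 53.4. Among jasmonate genes, LOX3, a lipoxygenase gene, was called in 3 libraries at 5.04 to 6.95. No region was annotated to any of 48 listed genes of pattern perception and early signalling, 47 cysteine-rich and wall-associated kinases or 19 intracellular immune receptors. The same held for 38 photosynthesis genes, 15 housekeeping genes and 6 genes of VQ-motif proteins, all that were matched of 38 names. At the background share, lists of these sizes would hold fewer than 1 such gene each. The lists are not complete. AT4G08850, described as a leucine-rich repeat protein, and AT5G47070, described as a putative receptor-like protein kinase, hold regions and are on none of them.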

How the data were processed

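DNA precipitated from seedlings with an anti-WRKY immune serum was linearly amplified before library construction and sequenced as single-end reads, per the labels' protocols, and such amplification can change the balance between fragments. Per the submitters' processing notes, the build was TAIR10 and the tools included HOMER, SAMtools 0.1.18, Bowtie2 2.0.5, cutadapt 1.2.1 and FastQC 0.11.2. No source used here names the peak caller. The authors deposited 1 peak list per library, called against input per the labels; the data of the 8 input libraries were not used. Each deposited peak carries scores (ChIP, ef and region), the authors' own values of unstated scale, used only to rank or filter peaks within a list.

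Intron and exon peaks were merged over the 8 lists where they shared at least 1 bp. A peak of any annotation overlapping a region counted as its call between groups, since 1 site can carry different annotations in different lists. Regions named are the 12 intron and 12 exon regions with the highest mean percentile (0 for a list with no call), up to 6 per comparison and direction, those of fixed gene lists and those in all 8 lists. Members and lists were chosen with earlier results of these data known. Values per library were compared by exact permutation, adjusted by Benjamini-Hochberg over 19 tests, of which 10 were added after seeing the data.

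The study analysed its 4 conditions within each biological replicate, and replicate differences in calls correlated between groups over the regions (0.346 to 0.434), so replicate numbers were taken to pair libraries. Paired, every p was 1 in 8 or higher, the smallest 4 pairs allow. The unpaired p-values compare 4 with 4 libraries. Their spread therefore also holds the differences between replicate numbers and between genotypes, or between times. Sign permutations within a library run over 8 libraries or 4 group means. With 2 replicates a group, the spread within a group was not tested by itself. Gene names came from RefSeq (TAIR10.1), which held all 235 genes; no coordinates were taken from it, and no sequence is shown because no genome was used here. Region merging and counts between groups were tested on simulated lists, and the permutation tests on random values against scipy. The simulated regions lay far apart, carried the same label and had a peak in every library of the groups that held them. Partial calls and changing labels, as in the data, were therefore not covered. Python 3.11.15, pandas 2.3.3, numpy 2.4.6 and scipy 1.17.1 were used.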

Additional observations from a re-analysis of the deposited data

Results flagged for a closer look

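Intron peaks at 0 h numbered 49 in 3 libraries and 44 in WT 0 h replicate 1, which Dixon's criterion set apart from the other 3. With 3 equal counts the criterion does so for a gap of any size, so it cannot tell whether 44 is unusual. The list of WT 0 h replicate 1 is also the one that lacked 136 of its own numbers. The part of those absent rows in the lower count was not tested. Over the 33 sets of libraries examined in this way, chance alone sets about 1 in 20 apart, a rate that does not hold for tied counts.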

How the results depend on the processing

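No adjusted p fell below 0.05 under any alternative. Above each list's median score, 117 regions were left. Counts of regions that differ between groups follow as called in the one group and not in the other.

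WT 2 h not WT 0 h (14) was 6 above the median score, 4 with equal numbers of peaks and 51 in the replicate block (the mean of both same-numbered pairs of libraries). WT 0 h not WT 2 h (4) was 9 with equal numbers and 23 in the block. Mutant 2 h not mutant 0 h (5) was 3 above the median, 0 with equal numbers, 2 with peaks cut to 150 bp and 45 in the block. Mutant 0 h not mutant 2 h (1) was 3 with equal numbers, 3 with cut peaks, 0 with only intron or exon peaks as calls and 15.5 in the block. Mutant 2 h not WT 2 h (6) was 2 above the median, 3 with equal numbers and 43.5 in the block. WT 2 h not mutant 2 h (5) was 2 above the median, 2 with equal numbers and 32.5 in the block. Mutant 0 h not WT 0 h (0) was 1 with equal numbers, 1 with an ef score of 5 or more, 1 with cut peaks and 27 in the block. WT 0 h not mutant 0 h (1) was 0 above the median and 17.5 in the block. A block pair asks 1 library of each group, so more regions qualify. Without 1 library the counts, in this order, were 19 to 45, 5 to 25, 9 to 39, 3 to 10, 11 to 52, 8 to 29, 6 to 21 and 4 to 12.

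Some differences changed sign. With equal numbers of peaks, 2 h minus 0 h was -4.75 for intron and exon peaks and -0.346 percentage points for their share, and introns minus exons was -1.44 in percentile. With an ef score of 5 or more the share was -0.185 and the distance of introns minus exons 29.8 bp. Above the median score, mutant minus WT was 1.5 intron peaks and 0.0213 points of intron share. The cause of these reversals was not tested. Leaving out 1 library gave -0.178 to 0.203 points for the share and -12.4 to 4.25 for exon peaks at 2 h minus 0 h, -8.58 to 5.08 intron peaks for mutant minus WT, and -0.848 to 4.64 in percentile for introns minus exons. The difference in intron peaks between times was 29.9 to 34.9, and that in percentile from other peaks -7.99 to -6.36. Neither merging all peaks first nor asking a call to cover 50% of the shorter peak moved a count by over 1.5 times.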

Other observations

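The deposited descriptions of the genes holding the regions, and of the genes nearest to all other regions, were searched for a few words. The words were chosen after the data were seen, so the values are given with no test. A gene holding a region but never nearest to any peak had no description and was left out. Transporter occurred in 16 of 227 intron and exon regions with a description (7.05%), AAT1 and PTR3 among them, and in 105 of 3645 other regions (2.88%). Kinase occurred in 16 (7.05%), against 9.66% of other regions. Transcription factor occurred in 13 (5.73%), against 4.28%, and cytochrome P450 in 4 (1.76%), against 1.02%. Disease resistance occurred in 0, against 1.23%.

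Separate regions, 2 to a gene, were found in 6 genes: AT1G05370, WAT1, BGLU17, CA2, GAD and AT5G53110. In AT1G05370 the regions were called in 8 and 3 libraries, in GAD, the gene of a glutamate decarboxylase, in 7 and 1, and in CA2, a carbonic anhydrase gene, in 1 each.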
